A study of Tuber melanosporum with 9 samples.

Results

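DNA methylation was compared between 2 of the 9 samples of the series, a 5-azacytidine (5-aza)-treated and an untreated mycelium of the black truffle Tuber melanosporum, each read as 1 bisulfite library. The members are the cytosines with at least 4 reads in both libraries, 36496217 in all, of 49884850 cytosines listed for the 5-aza-treated and 49271688 listed for the untreated mycelium. Both mycelia were of isolate Mel28, the strain of the reference genome, and grew in the dark at 23 °C in a synthetic liquid medium. The treated mycelium received 100 µM 5-aza every 5 days for 45 days, the last time 24 h before harvest, and the untreated mycelium received water of equal volume at the same times. How many cultures were pooled into each library is not stated. Another mycelium of Mel28, grown on malt agar (FLM), served to sort cytosines by level with reads that enter neither side of the comparison. No marker genes were given for mycelium, so that the label was not checked against any.

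5-Aza is a cytosine analogue that is built into nucleic acids, where it traps DNA methyltransferases and so lowers the methylation of DNA made in its presence. Fungal genomes carry cytosine methylation mainly in transposable elements and other repeats. Cytosines are sorted by the bases that follow them into CG sites, CHG sites and CHH sites, where H is A, C or T. CG and CHG sites read the same on both strands, so that after replication the old strand can guide an enzyme to the new one, and CHH sites have no such partner. In Neurospora crassa 1 enzyme, DIM-2, methylates all contexts downstream of the histone methyltransferase DIM-5 and the protein HP1. In Ascobolus immersus the enzyme Masc1 is needed for the methylation of newly repeated sequences.

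The kept cytosines comprised 5775896 CG, 6588732 CHG and 24131589 CHH sites, with a median of 9 reads in the treated and 8 reads in the untreated library. A single site of 4 reads moves in steps of 25 points, whereas means over many sites are narrow. A level is the percent of reads that kept the cytosine, averaged over cytosines, and differences are treated minus untreated, in percentage points. With 1 library per condition no test was possible, and standard errors (SE) and 95% intervals cover counting error alone. They treat reads as independent molecules, which sequencing without molecular identifiers does not ensure, and they hold nothing of the variation between cultures.

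CG methylation per site was nearly equal in the 2 mycelia, whereas CHG and CHH methylation was lower after 5-aza. The mean CG level was 23.57% in treated and 23.62% in untreated mycelium, a difference of -0.053 points (SE 0.0026). The CHG level was 6.59% in treated against 7.98% in untreated mycelium, a difference of -1.39 points (SE 0.0046), or -17.4% of the untreated level. The CHH level was 7.87% in treated against 9.46% in untreated mycelium, a difference of -1.58 points (SE 0.0026), or -16.7%. The share of methylation missing was thus close in the symmetric CHG and the asymmetric CHH context. With reads pooled over sites, the CG level was 21.559% in treated (exact interval 21.548 to 21.569%) and 21.707% in untreated mycelium (21.696 to 21.718%). Pooled CHG was 6.31% (6.31 to 6.32%) in treated against 7.57% (7.56 to 7.58%) in untreated mycelium. Pooled CHH was 7.36% (7.36 to 7.37%) in treated against 8.72% (8.71 to 8.72%) in untreated mycelium. Pooling moved the CG difference to -0.148 points, more than any other alternative tried. This joins opposite values, since pooled reads gave -0.742 points in repeats (60.5% in treated against 61.3% in untreated mycelium) and 0.152 points outside them.

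Repeats, which cover 56.6% of the assembly, carried most of the difference. In the 27168 repeats with a class, the CG level was 77.6% in treated and 77.8% in untreated mycelium (-0.139 points, and -0.6865 points with reads pooled). Their CHG level was 14.3% in treated against 17.3% in untreated mycelium (-3.05 points, SE 0.012), and their CHH level 16.7% against 20.1% (-3.37 points, SE 0.0065). In the repeats without a class, the CHH level was 9.80% in treated against 11.8% in untreated mycelium (-2.005 points). Classified repeats hold 32.7% of the CHH sites kept and 69.8% of the summed CHH difference, and 31.8% of the CHG sites and 70.0% of the summed CHG difference. Sites more than 1 kb from a repeat hold 37.6% of the CHH sites and 2.05% of the summed difference.

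**Figure D1:**
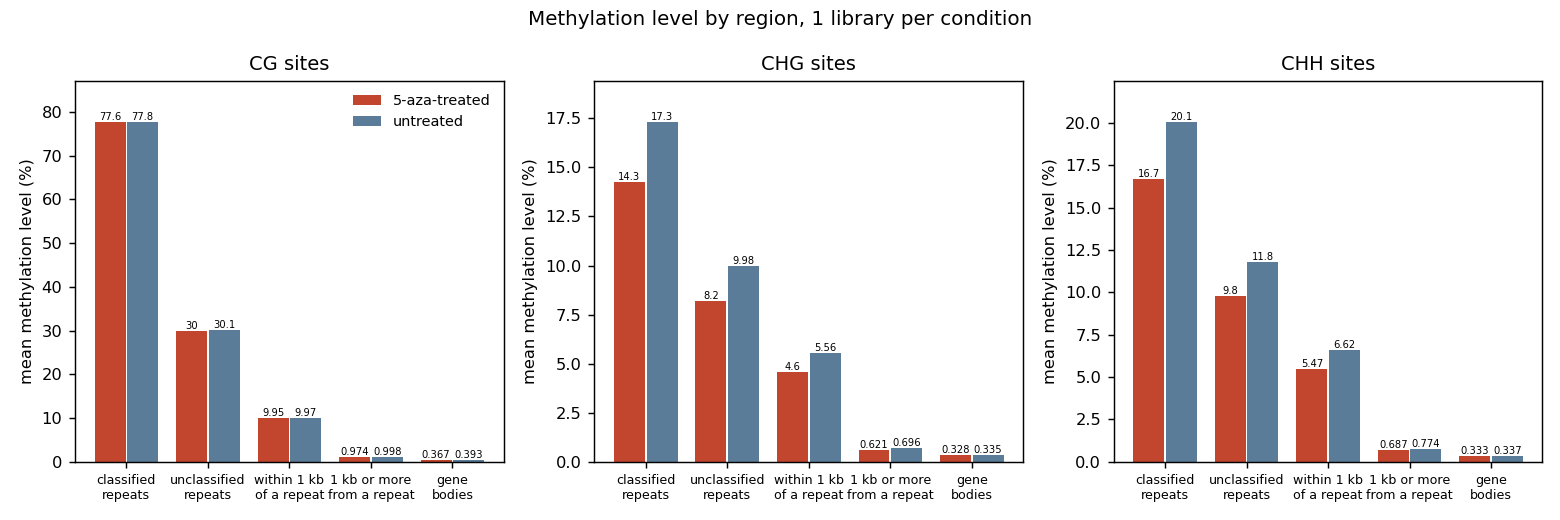
Mean methylation level in percent (bars from 0) of 5-aza-treated (red) and untreated (blue) mycelium in classified repeats, unclassified repeats, flanks within 1 kb of a repeat, sequence at least 1 kb from a repeat, and gene bodies, for CG, CHG and CHH sites. The CG bars are level in each region, whereas the CHG and CHH bars of the treated library are lower in repeats and their flanks (CHH in classified repeats 16.7% against 20.1%) and nearly equal in gene bodies (0.333% against 0.337%).

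Gene bodies outside repeats show what each library reads where methylation is nearly lacking. Their CHH level was 0.333% in treated and 0.337% in untreated mycelium, their CHG level 0.328% and 0.335%, and their CG level 0.367% and 0.393%, over 4066410 CHH, 1158980 CHG and 1376459 CG sites. The differences were -0.0254 points in CG, -0.0068 points in CHG and -0.0046 points in CHH, where classified repeats differed by -3.37 points in CHH. With reads pooled the direction turned in CHH (0.395% in treated against 0.366% in untreated mycelium) and in CHG (0.374% against 0.359%). A scaffold of 114267 bp with 12 genes and 1.79% of its length in repeats, chosen after its values were seen, stood apart. It was read to a median of 157 reads in the treated and 89 reads in the untreated library, and its levels were alike in the 3 contexts and higher in treated mycelium (CHH 1.097% against 0.795%, CG 1.16% against 0.852%). Without it the genome-wide differences were -0.0528 points in CG, -1.389 points in CHG and -1.585 points in CHH.

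Sites were then grouped by starting level. Grouping by the untreated reads themselves puts part of their counting error into the groups, so that FLM levels were used beside them. Among CHH sites at more than 40 and up to 50% in FLM, the level was 35.2% in treated against 42.1% in untreated mycelium (-6.88 points), and the same bin by untreated level gave 31.3% against 47.6% (-16.3 points). By FLM level, the CHH difference was -1.40 points at sites above 0 and up to 10%, -4.97 points above 20 and up to 30%, -7.65 points above 50 and up to 60%, and -8.31 points above 80 and up to 90%. Relative to the untreated level this was -19.4%, -18.03%, -15.7% and -12.8%. Over these 4 bins the difference in points grew with the level while its share of that level shrank. Both ends departed from this, with -7.99 points above 90% and, at sites of 0 in FLM, -0.238 points or -14.8%. CHG sites gave nearly the same figures, with -1.37 points (-19.6%) in the lowest and -8.23 points (-12.8%) in the highest of these 4 bins, and -7.06 points (-10.4%) above 90%.

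CG sites showed no such slope. At CG sites above 90% in FLM the level was 93.96% in treated and 94.06% in untreated mycelium (-0.098 points, interval -0.120 to -0.0763). The difference in the other CG bins above 10% lay between -0.157 points, above 80 and up to 90%, and -0.464 points, above 50 and up to 60%. In the same FLM bin, above 50 and up to 60%, the mean difference was thus -0.464 points for CG and -7.65 points for CHH sites. Sites with at least 10 reads in both libraries and in FLM gave -8.02 points for CHH and -0.439 points for CG in the same bin.

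**Figure D2:**
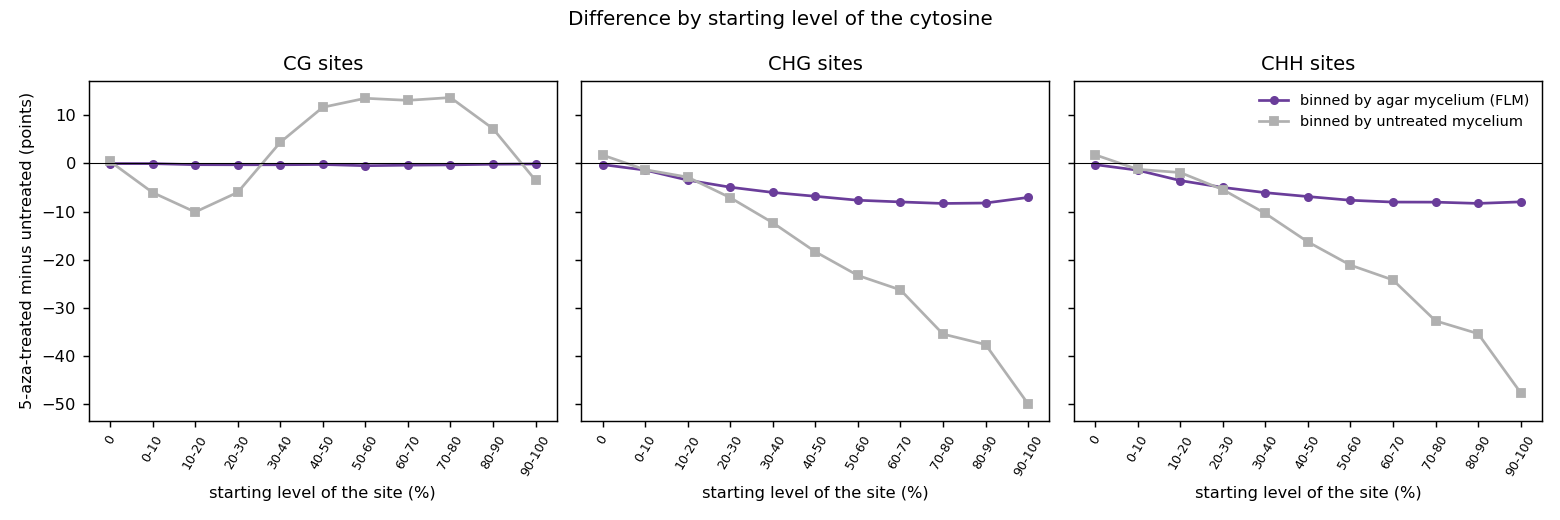
Difference between 5-aza-treated and untreated mycelium in points (vertical axis) against the starting level of the cytosine in percent (horizontal axis, 0 and steps of 10), for CG, CHG and CHH sites. Circles bin sites by their level in FLM and squares by their level in untreated mycelium, vertical lines are 95% counting intervals, and with FLM bins CG stays near 0 while CHG and CHH reach about -8 points.

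The spread of levels among repeat sites of at least 10 reads moved in the same way. Of CHH sites in repeats, 43.7% had a level of 0 in treated against 41.8% in untreated mycelium. A level above 50% was less frequent in treated mycelium in each bin, with 2.40% against 3.48% of CHH sites above 50 and up to 60%, and 0.0553% against 0.213% above 90%. Of CG sites in repeats, 47.3% in treated and 47.7% in untreated mycelium stood above 90%, and 35.9% and 36.1% stood at 0. The CG sites thus stayed split into methylated and unmethylated ones.

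CG and CHG sites were next paired over the 2 strands, a cytosine being counted as methylated at a level of at least 50%. Among 673827 CG pairs in repeats, 59.2% were methylated on both strands in treated and 59.1% in untreated mycelium. Pairs methylated on a single strand made up 1.14% (exact interval 1.118 to 1.17%) in treated and 1.29% (1.26 to 1.32%) in untreated mycelium. By this cut, one-sided CG pairs were no more frequent in treated mycelium. Counting error makes one-sided calls as well, and kept CG sites had a mean of 10.1 reads in treated and 9.18 in untreated mycelium. Whether the shares differ apart from depth was not tested. Among 828256 CHG pairs in repeats, 0.236% were methylated on both strands in treated against 0.691% in untreated mycelium, and 10.8% against 17.2% were methylated on a single strand. Of the CHG pairs methylated at all, 97.9% in treated and 96.1% in untreated mycelium passed 50% on a single strand. Few CHG cytosines reach 50%, and sites below it, which hold much of the CHG methylation, count as unmethylated here. These shares therefore do not show whether the strands are marked independently. A site with few reads can also reach 50% by counting error. Kept CHG sites had a median of 9 reads in treated and 8 in untreated mycelium. The CHG shares thus do not measure how much methylation was lost. Between the 2 strands of CHG pairs in repeats, the mean absolute difference was 16.0 points in treated against 19.1 points in untreated mycelium.

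Bases after the cytosine set the level of non-CG sites more than they set the share lost. Words are written 5′ to 3′ with the cytosine first, and the table of calls gives the base after the cytosine, whereas the third base was rebuilt from neighbouring calls. It was known at 64.5% of CHH sites, at nearly all sites where C follows and at 44.8% and 49.6% of those where A or T follows. In repeats, CHH sites with A after the cytosine stood at 21.4% in treated against 25.7% in untreated mycelium (-4.23 points, -16.5%). Those with C in that place stood at 15.9% against 19.0% (-3.15 points, -16.6%), and those with T at 7.37% against 9.03% (-1.66 points, -18.4%). The highest level of a single word was at CAC, with 25.8% in treated against 30.6% in untreated mycelium (-4.77 points, -15.6%). The word CCC followed with 22.1% against 26.1% (-4.03 points, -15.4%). The lowest level was at CTT, with 4.50% against 5.65% (-1.16 points, -20.4%), where only CTT sites followed by G are counted. The absolute difference of these 3 words followed their level, and the relative difference was larger at CTT than at the other words named.

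The CHG words kept the same order. In repeats, CAG stood at 16.6% in treated against 19.9% in untreated mycelium (-3.39 points, -17.0%). The word CCG stood at 11.8% against 14.2% (-2.46 points, -17.3%), and CTG at 9.01% against 11.1% (-2.10 points, -18.9%). The base before the cytosine went with a smaller spread of levels and a like spread of relative differences. CHH sites in repeats after G stood at 13.8% in treated against 16.8% in untreated mycelium (-18.02%), those after C at 13.3% against 15.8% (-16.2%), and those after A or T at 15.8% against 19.0% (-16.7%).

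Words were then set side by side at like FLM levels, a comparison chosen after the data were seen. At CHH sites above 40 and up to 50% in FLM, the relative difference was -16.3% with A, -16.0% with C and -17.6% with T after the cytosine. Above 20 and up to 30% it was -17.96%, -17.5% and -19.2% with the bases in the same order. Sites with T thus had the largest relative difference in both bins, and they had it in every other bin up to 90%. Above 80 and up to 90% it was -12.7% with A, -12.6% with C and -14.6% with T. Above 90% it was -11.6% with A, -12.1% with C and -11.6% with T. That bin holds 1672 sites with T, and their difference had a wide interval, -8.27 to -5.96 points.

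Repeat classes differed in points and hardly in the share lost. Gypsy elements, long terminal repeat (LTR) retrotransposons and the most numerous named class with 13248 copies, stood at 17.9% in CHH in treated against 21.5% in untreated mycelium (-3.58 points, SE 0.0089, -16.6%). LINE and I elements, retrotransposons without LTRs, stood at 17.6% against 21.2% (-3.65 points, SE 0.016, -17.2%). DNA transposons, which move by excision or strand transfer without an RNA copy, stood at 14.2% against 17.1% (-2.89 points, SE 0.015, -16.9%). Copia and the unassigned LTR elements together stood at 11.02% against 13.3% (-2.29 points, -17.2%). The 200 elements of small classes such as DIRS, Ngaro and Penelope stood at 4.35% against 5.15% (-0.799 points, -15.5%). The CHG differences ran from -3.39 points in LINE and I elements to -0.882 points in the small classes, with relative differences between -18.3% and -17.0%. The CG difference lay between -0.172 points in Gypsy and 0.0076 points in Copia and the unassigned LTR elements. For Copia and the unassigned LTR elements, pooled reads gave -1.498 points and sites of at least 10 reads -0.115 points.

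**Figure D3:**
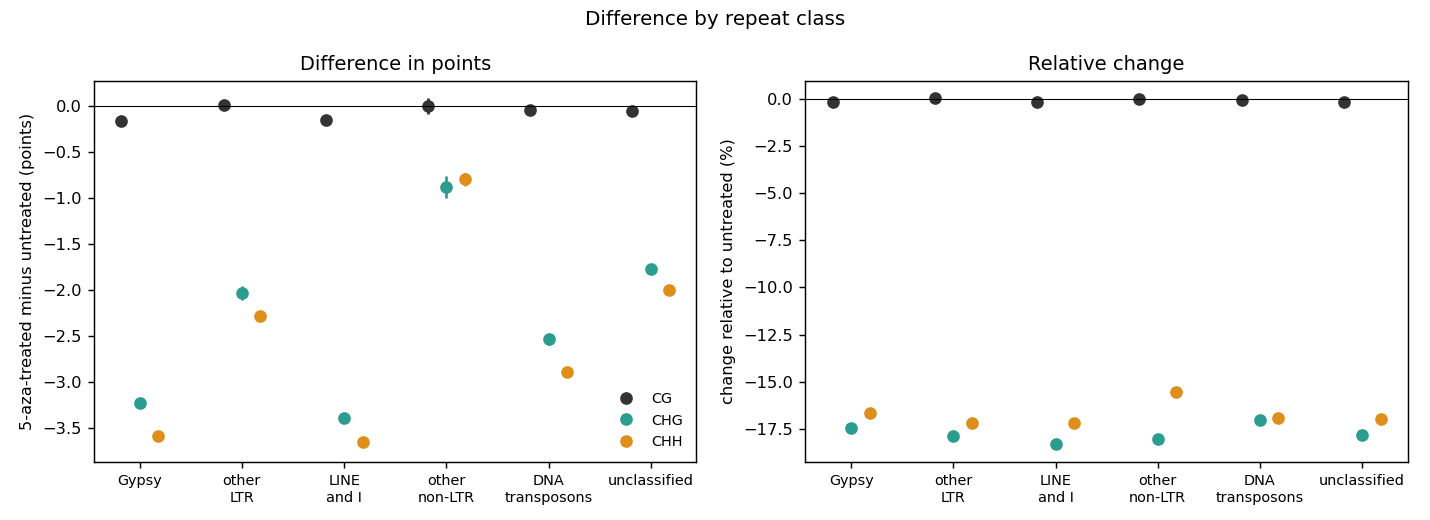
Difference between 5-aza-treated and untreated mycelium for the 6 groups of repeats, at left in percentage points with 95% counting intervals and at right as a percent of the untreated level, for CG (black), CHG (green) and CHH (orange) sites. The left panel spreads from -3.65 to -0.799 points for CHH, whereas the right panel holds the CHG and CHH values of all 6 groups between -18.3% and -15.5%.

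Single superfamilies showed the same with more scatter. Leaving aside Penelope, Jockey and SINE, each with fewer kept CHH sites than the others, the relative CHH difference ran from -18.5% in Mutator (16.0% in treated against 19.6% in untreated mycelium) to -13.9% in PIF-Harbinger (19.7% against 22.8%). Penelope lay outside that range at -10.1% over 1901 kept CHH sites (25.7% in treated against 28.5% in untreated mycelium, -2.87 points, interval -3.82 to -1.93). Among the classes within the range, Helitron elements had the largest difference in points, at -4.42 (20.0% against 24.4%, SE 0.202). MITE elements, short non-autonomous DNA transposons with low methylation, differed by -0.452 points (2.12% against 2.58%). With elements weighted equally in place of sites, the Gypsy CHH difference was -3.59 points.

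Length followed the level. In repeats up to 300 bp the CHH level was 8.35% in treated against 10.1% in untreated mycelium (-1.76 points, -17.4%), and in repeats over 4000 bp it was 17.2% against 20.5% (-3.39 points, -16.5%). CG levels spread more widely over the same bins, with 18.28% and 18.30% in the shortest and 81.1% and 81.3% in the longest repeats. Within Gypsy, whose short and long copies were closer in level, the CHH difference was -3.36 points up to 300 bp, -3.55 points up to 700 bp, -3.56 points up to 1500 bp, -3.70 points up to 4000 bp and -3.55 points above, each bin starting where the one before it ends. Unclassified repeats over 4000 bp stood apart from the other long repeats, with a CG level of 16.3% in treated and 16.4% in untreated mycelium and a CHH difference of -0.879 points.

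The difference did not stop at the annotated ends. Across the ends of 12546 repeats of at least 1500 bp, the CHH level in the first 100 bp inside was 15.3% in treated against 18.3% in untreated mycelium (-2.95 points). In the first 100 bp outside, counting cytosines in no repeat, it was 12.8% against 15.4% (-2.61 points). The difference shrank to -1.76 points 500 to 600 bp outside and to -1.14 points 1900 to 2000 bp outside, where the levels were 5.82% and 6.96%. The relative difference held between -17.1% and -16.2% at these 4 places. CG levels inside and outside overlay each other, with 64.1% and 64.3% just inside and 43.33% and 43.34% just outside.

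**Figure D4:**
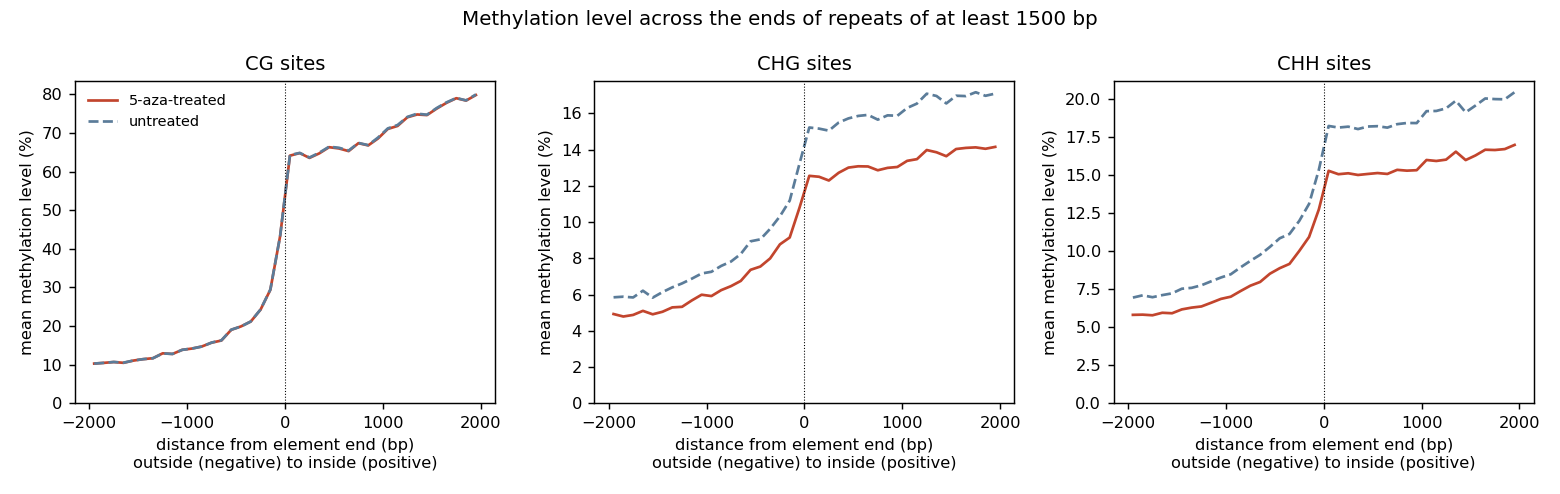
Mean methylation level in percent of 5-aza-treated (solid red) and untreated (dashed blue) mycelium against the distance in bp from the nearest end of repeats of at least 1500 bp, in steps of 100 bp from 2000 bp outside (negative) to 2000 bp inside (positive). The 2 lines coincide for CG and run apart for CHG and CHH on both sides of the end, by -2.95 points in the first CHH step inside; steps farther inside rest on longer repeats.

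Single elements were compared at classified repeats with at least 4 kept sites of a context. An element was counted as changed at 5 points or more in CHG or CHH and at 20 points or more in CG. In CHH, 6440 of 26893 elements fell past this size (23.9%) and 230 rose (0.855%). In CHG, 6339 of 25916 fell (24.5%) and 605 rose (2.33%). In CG, 11 of 23858 fell (0.0461%) and 10 rose (0.0419%). With at least 20 kept sites, where counting error is smaller, 6114 elements fell in CHH (23.5%) and 126 rose (0.484%), 4054 fell in CHG (21.6%) and 91 rose (0.485%), and none passed 20 points in CG in either direction. The median counting SE of these elements was 1.21 points in CHH, 1.92 points in CHG and 1.22 points in CG. At 10 points in each context and at least 4 kept sites, CG had 185 falls (0.775%) and 166 rises (0.696%). CHG then had 1290 falls (4.98%) and 136 rises (0.525%), and CHH 720 falls (2.68%) and 54 rises (0.201%).

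Most elements lay below 0 in CHH, whereas in CG 7028 elements with at least 20 kept sites lay below and 6059 above 0. Of the elements with at least 20 kept CHH sites, 86.9% were lower in treated mycelium by any amount, with a median of -3.23 points and quartiles of -4.87 and -1.13 points. The corresponding CG values were 53.0%, -0.0813 points, and -1.01 and 0.775 points. Among elements at 5% CHH or more in untreated mycelium, the median relative difference was -16.95% (quartiles -22.9% and -10.99%). Of 12753 elements with at least 20 kept sites of each context, 10469 were lower in both CHG and CHH and 455 were higher in both. In 7111 of them (55.8%) CHH was at least 2 points lower while CG stayed within 2 points. Taken singly, CHH was at least 2 points lower in 71.3% and CG stayed within 2 points in 79.8% of the 12753.

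**Figure D5:**
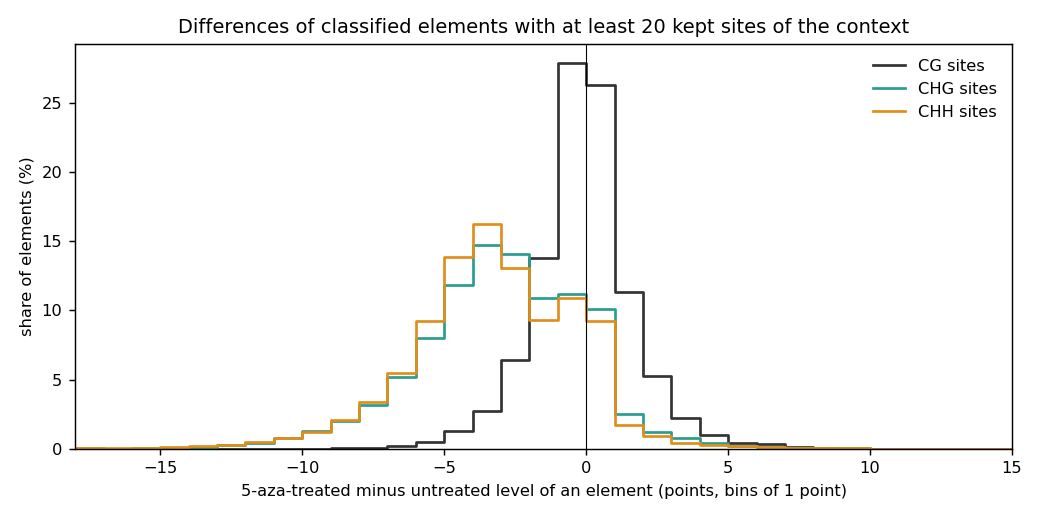
Share of classified elements in percent (vertical axis) by their difference between 5-aza-treated and untreated mycelium in points (horizontal axis, bins of 1 point), for elements with at least 20 kept CG (black), CHG (green) or CHH (orange) sites. The CG curve is centred at 0 (median -0.0813 points), whereas the CHG and CHH curves peak between -4 and -3 points and keep a shoulder at 0.

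The share of elements past 5 points was not highest in the longest. Of classified elements over 4000 bp with at least 20 kept CHH sites, 13.0% fell past 5 points, against 26.6% of those above 700 and up to 1500 bp and 27.5% of those above 300 and up to 700 bp. Their median differences were -3.50, -3.34 and -2.60 points, and their median counting SE 0.675, 1.40 and 1.83 points. The SDs of the differences were 1.54, 2.85 and 3.50 points, so that the shorter elements spread more widely, around a median nearer to 0 than that of the longest. By class, the share past 5 points in CHH was 24.8% in Gypsy, 23.6% in LINE and I elements, 24.0% in DNA transposons, 15.2% in Copia and the unassigned LTR elements, 16.8% in unclassified repeats and 6.49% in the small retrotransposon classes (12 of 185 elements).

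The 5 elements with the largest CHH falls were short, at 243 to 413 bp. Among 23022 classified elements with at least 50 kept CHH sites, the largest fall was in a TIR element of scaffold 46 at 308819 to 309185 of the v1.0 assembly. Its CHH level was 16.5% in treated against 34.9% in untreated mycelium (-18.4 points, SE 2.54, 67 sites). Pooled reads gave 17.2% against 32.8%, while its 5 kept CG sites stood at 97.1% and 100%. A Gypsy fragment of scaffold 12 at 664785 to 665028 stood at 22.9% in treated against 41.0% in untreated mycelium (-18.04 points, SE 2.93). The other 3 of the 5, a LTR element of scaffold 231 and Gypsy fragments of scaffolds 1 and 219, fell by 17.2 to 17.7 points. The 5 largest rises, in elements of up to 3122 bp, lay between 8.14 and 9.54 points, with the largest in a LTR element of scaffold 1 at 2007973 to 2009412 (28.4% in treated against 18.8% in untreated mycelium, SE 2.81, 57 sites). These elements are the extremes of a long list, each read by 50 to 76 CHH sites. No RNA read was counted for any of them in either mycelium, as for 24196 of all 27168 classified elements.

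The extremes of CG were smaller than the 20 points used to count a change in CG, though larger than the 5 points used in CHG and CHH. Among 13269 classified elements with at least 20 kept CG sites, the lowest value was in a Gypsy element of scaffold 1 at 400644 to 401898, with 62.9% in treated against 74.8% in untreated mycelium (-11.9 points, SE 3.78, 21 sites). The highest was in a Tc1/Mariner element of scaffold 53 at 212099 to 213145, with 72.2% against 60.9% (11.3 points, SE 2.82, 20 sites). The 5 lowest lay between -11.9 and -9.66 points and the 5 highest between 9.005 and 11.3 points. CHH was lower in treated mycelium in 4 of the 5 lowest and in all 5 highest, beside 86.9% of all classified elements with at least 20 kept CHH sites.

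Elements were also sorted by their own CG level in FLM. In the 11398 repeats under 5% CG, the CHH level was 0.461% in treated and 0.500% in untreated mycelium (-0.0390 points). In those at 5 to 20% CG it was 4.04% against 4.96% (-0.919 points, -18.5%), at 20 to 50% CG 9.24% against 11.1% (-1.87 points, -16.8%), and at 90% CG or more 20.0% against 24.2% (-4.12 points, -17.1%). Repeats without CG methylation were thus also nearly without CHH methylation in both mycelia. From 5% CG upwards the relative CHH difference lay between -18.5% and -16.8%, and that of CHG between -17.8% and -15.9%.

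Outside repeats the levels were low and lay near the repeats. The CHH level outside all repeats was 2.20% in treated against 2.63% in untreated mycelium (-0.425 points, -16.2%), and the CG level 3.24% against 3.26%. Within 1 kb of a repeat the CHH level was 5.47% against 6.62% (-1.16 points, -17.5%), and at least 1 kb away it was 0.687% against 0.774% (-0.0864 points, and -0.0141 points with reads pooled). The CHH sites outside repeats that stood above 40 and up to 50% in FLM behaved like those in repeats, with 33.9% in treated against 41.1% in untreated mycelium (-7.12 points), while CHH sites of repeats in that bin stood at 35.4% against 42.3% (-6.84 points). Pooling reads turned the CG difference outside repeats to 0.152 points (3.15% in treated against 2.99% in untreated mycelium), and moved that of CHH to -0.196 points.

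Across scaffolds the direction was nearly uniform in CHG and CHH. Of 379 scaffolds with at least 1000 kept CHH sites, 370 were lower in treated mycelium and 9 were higher, with a median relative difference of -16.5% and quartiles of -17.8% and -15.2%. In CHG, 344 of 347 scaffolds were lower. In CG, 261 of 334 scaffolds were lower, with a median of -0.054 points and an SD of 0.129 points. Of the 2 scaffolds known to hold rRNA genes, that of 60243 bp differed by -3.47 points in CHH (17.8% in treated against 21.3% in untreated mycelium). That of 12744 bp had 102 kept CHH sites and stood at 2.31% and 2.16%.

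The FLM mycelium gives another level at sites with at least 4 reads in all 3 libraries. In repeats, the CHH level was 14.7% in 5-aza-treated, 17.6% in untreated and 15.4% in FLM mycelium, and the CHG level was 12.5%, 15.1% and 12.8% in the same order. The treated level was thus nearer to that of FLM (-0.705 points in CHH) than to that of the untreated liquid culture (-2.98 points). The CG level was 61.6% in treated, 61.7% in untreated and 59.6% in FLM mycelium, where the 2 liquid cultures were the closer pair. FLM was grown on another medium and read with another library, so that culture and library cannot be told apart there. Untreated minus FLM was 2.28 points in CHH of repeats, beside -2.98 points for treated minus untreated.

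RNA of mycelia under the same 2 treatments was read in 1 library each and scaled to the sum of the reads counted on genes and repeats (RPM). Of 27168 classified elements, 24196 had no read in either mycelium and 669 had at least 10 in both together. In these 669 the median log2 fold difference was 0.05 (quartiles -0.37 and 0.54, with 0.1 RPM added), and in genes it was 0.05. In the 10 that fell past 5 points in CHH the median was 0.46 (131 reads in treated and 129 in untreated mycelium in all), and in the 7 that were at least 2 points higher in CHH it was 0.46 as well (155 and 145 reads). In the 52 that were 2 to 5 points lower it was 0.07, and in the 597 within 2 points 0.05, so that the medians did not follow the CHH difference. Split by CHG, the median was 0.49 in the 17 elements at least 5 points lower (230 reads in treated and 188 in untreated mycelium). It was 0.05 in the 47 that were 2 to 5 points lower, the 590 within 2 points and the 3 at least 2 points higher. The groups at the ends of both splits hold few elements, and whether their RNA differs was not tested. The 48 elements at 20% CHH or more in untreated mycelium had a median of 0.34, with 949 reads in treated against 703 in untreated mycelium. Summed over all classified elements, RNA was 9613 RPM in treated against 20792 RPM in untreated mycelium. The 10 elements with the most reads in treated mycelium held 66.2% of the sum in treated and 83.8% of that in untreated mycelium. Most of the difference between the 2 sums lay in Copia and the unassigned LTR elements (6412 RPM in treated against 17475 RPM in untreated mycelium). It was not shared by most of these elements. In the 145 with at least 10 reads the median log2 fold difference was 0.03, with 14 at least 2-fold higher and 17 at least 2-fold lower. In the same order, Gypsy had 1093 and 1157 RPM, LINE and I elements 946 and 1036 RPM, and DNA transposons 1072 and 1074 RPM. The small retrotransposon classes such as DIRS and Ngaro had 90.5 RPM in treated against 49.2 RPM in untreated mycelium.

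Among genes of the methylation machinery, TmelDnmt1 (GSTUMT00012206001), a homolog of Masc1, had 90.5 RPM in treated against 54.7 RPM in untreated mycelium, a ratio of 1.66 (counting interval 1.54 to 1.78). TmelDnmt2 (GSTUMT00003328001), a homolog of DIM-2, had 97.8 RPM in treated against 105.9 RPM in untreated mycelium (0.924, 0.872 to 0.978). The homolog of DIM-5, which places the histone mark that precedes DNA methylation in Neurospora, had 51.6 RPM in treated against 59.3 RPM in untreated mycelium. The homolog of HP1, which binds that mark, had 239.6 RPM against 295.6 RPM. The homolog of the phosphatase PP1 had 358.3 RPM against 284.5 RPM, and that of DMM-1, which limits the spread of methylation in Neurospora, 120.3 RPM against 111.6 RPM. The bodies of the 6 genes were nearly unmethylated in both mycelia, with CHH levels between 0.282% and 0.413% in treated and between 0.202% and 0.407% in untreated mycelium.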

How the data were processed

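The authors aligned bisulfite reads to the Tuber_melanosporum_v1.0 assembly (398 scaffolds) with BS Seeker (version: not given in the sources used here) and deposited counts of methylated and of all reads per cytosine and strand. Levels were computed here from these counts. The mean depth was 8.64 reads per listed cytosine in the 5-aza-treated and 7.35 in the untreated library. For RNA, the deposited values used are raw read counts per gene and repeat. The authors' RPKM, fold changes and p-values in the same tables were not used. FLM positions count from 0 and were shifted by 1. Cytosines without a context were left out (643 in the treated and 488 in the untreated library). Repeats came from the deposited table (45028), and gene bodies for 7420 of 7496 genes from RefSeq positions on the scaffold of the deposited table, taken to be the same assembly.

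Named elements were the 5 largest falls and rises in CHH (at least 50 kept sites) and in CG (at least 20) among classified elements. Named genes and scaffolds were listed with the design. The cytosines, gene lists and comparisons were chosen with earlier results of these data known. Intervals of pooled levels and shares are exact Clopper-Pearson intervals, and those of mean differences come from the binomial variance of each site. Element sums and interval estimates were tested on simulated data. Alternatives changed the read minimum, pooling, strand, depth, scaffolds, bins and weights. Computation used Python 3.11.15, numpy 2.4.6, scipy 1.17.1, pandas 2.3.3, pyarrow 21.0.0 and matplotlib 3.10.9. The fruiting body and ectomycorrhiza libraries were not used here.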

Additional observations from a re-analysis of the deposited data

How the results depend on the processing

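The CG, CHG and CHH differences stayed below 0 in all 10 alternatives tried. In CG they ran from -0.1485 points (pooled reads) to -0.02721 (gene-body level subtracted), with -0.0615 at a minimum of 1 read and -0.06025 at 10 reads. In CHG and CHH, a minimum of 1 read gave -1.598 and -1.85 points, 10 reads -1.255 and -1.327, pooled reads -1.254 and -1.353, scaffolds of like depth ratio -1.373 and -1.565, and sites also read in FLM -1.368 and -1.553. Each strand alone, the data without the deepest sites and those without the deep scaffold of 114267 bp (chosen after seeing the data) moved these differences by less than counting error. CHH sites at 40 to 50% gave -16.31 points in bins of untreated level, -6.88 in bins of FLM level, -9.131 in bins of the mean of both and -12.81 at 10 reads. CHH sites with A after the cytosine gave -4.228 points inside and -0.6603 outside repeats, and -1.995 pooled. Gypsy CHH gave -3.435 points pooled. CHH over 4000 bp gave -3.545 points within Gypsy. Outside repeats, CHH gave -0.08636 points 1 kb away, -0.004629 in gene bodies, -0.1962 pooled and -0.1938 pooled without that scaffold.

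Bins by starting level turned direction where they were set by FLM in place of untreated reads. In CG this gave -0.02138 points at 0, -0.2649 at 30 to 40%, -0.2069 at 40 to 50%, -0.4641 at 50 to 60%, -0.3515 at 60 to 70%, -0.2884 at 70 to 80% and -0.157 at 80 to 90%, and at 0 it gave -0.2305 in CHG and -0.2376 in CHH. Bins by the mean of both turned CG to 0.05257 and CHH to 0.04041 points above 0 and up to 10%, and 10 reads turned CG to 3.187 points at 20 to 30%. Pooled reads (added after seeing the data) turned CG to 0.1522 points outside repeats (0.1618 without the deep scaffold), 0.3664 within 1 kb and 0.01918 farther away, and gene bodies to 0.01471 in CHG and 0.02859 in CHH. Pooled CHH was -0.01409 points at least 1 kb away.

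Counts of elements depended on the thresholds. With 20 kept sites, 0 of 13269 elements fell and 0 rose in CG. In CHG 4054 of 18755 fell (21.6%) and 91 rose (0.485%), and in CHH 126 of 26035 rose (0.484%). With 10 points in each context, 185 of 23858 fell (0.775%) and 166 rose (0.696%) in CG. In CHG 1290 of 25916 fell (4.98%) and 136 rose (0.525%), and in CHH 720 of 26893 fell (2.68%) and 54 rose (0.201%). Pooled reads gave 31 falls (0.130%) and 33 rises (0.138%) among 23858 elements in CG. A minimum of 10 reads gave 0 falls and 0 rises among 12811 elements in CG. In CHG 5405 of 17415 elements then fell and 524 rose. In CHH 6763 of 22858 then fell (29.6%) and 500 rose (2.19%). Both CHH shares were larger than in the main setting, where 23.9% of 26893 fell and 0.855% rose. By definition a smaller size counts at least as many elements and a larger size at most as many. The settings of 20 kept sites and of 10 reads also changed which elements were compared. Beyond that, the cause of these moves was not tested. Of the values of single bins, words, classes and regions under an alternative, 187 moved by more than counting error, 21 did not and 18 turned direction. Of the values of the main results, 42 moved, 26 did not and 0 turned direction, where counts of elements were judged by a set ratio. Some alternatives are other sets of sites, such as those inside or outside repeats or within Gypsy, and not changes of processing.

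No paired analysis was possible because each condition has 1 library. Depth limits single sites, which 4 reads place in steps of 25 points, and elements with few sites.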
